A study of Mus musculus with 4 samples.

Results

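The genes described here encode the proteins of the cytosolic ribosome, the particle that translates messenger RNA in the cytoplasm. They were chosen by gene name in the deposited tables, with earlier results of these data known. The rule took every symbol made of Rpl or Rps and a number with its suffix, plus Rplp0, Rplp1, Rplp2 and Rpsa. The rule found 83 of 31017 gene names, 51 for proteins of the large subunit and 32 for proteins of the small subunit. Of these, 80 passed the filter on low counts (48 large, 32 small) and were tested among 13241 genes. The other 3 are tissue-restricted paralogs of large subunit genes. Rpl10l had 0 counts in all 4 libraries, Rpl39l had 2 and 3 counts in CD63 high libraries, against 0 and 0 in CD63 low libraries, and Rpl3l had 4 and 5 counts in CD63 high libraries, against 1 and 0 in CD63 low libraries.

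Transcripts were counted by bulk RNA sequencing of beta cells, the insulin-secreting cells of the pancreatic islet, from wild-type 10-week-old C57BL/6J male mice. The cells had been sorted by flow cytometry on CD63, a tetraspanin found in lysosomal and secretory membranes, into CD63 high cells (2 libraries) and CD63 low cells (2 libraries). All islets were cultured overnight before they were dissociated, and the labels give no gate besides CD63, no number of mice and no statement on pooling. Nothing says that the 2 libraries of a group came from separate mice, so the p-values below measure only the spread between these libraries, which may be technical.

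Ribosomal proteins are made in nearly equal numbers and are assembled on ribosomal RNA in the nucleolus into a large subunit, which forms peptide bonds, and a small subunit, which reads the messenger. Their messenger RNAs belong to the class with a terminal oligopyrimidine (TOP) tract, a run of C and T bases that starts with a C at the first transcribed base, and translation of this class is under control of the kinase complex mTORC1 and the RNA-binding protein Larp1. Beta cells translate proinsulin at a high rate, so that the supply of ribosomes is part of their secretory capacity.

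Libraries held between 29249270 and 35003307 counts. Insulin transcripts took 49.0% and 52.2% of them in CD63 high replicates 1 and 2, against 56.4% and 48.7% in CD63 low replicates 1 and 2. All 10 beta cell markers were detected, with summed levels (CPM, count-per-million) of 551347 and 587175 CPM in CD63 high and 622133 and 537654 CPM in CD63 low libraries. Insulin transcripts took up most of these sums. Of the 10 markers, 3 had a log2 fold change (CD63 high over CD63 low) above 0, and the median was -0.57. By edgeR, 6 were lower at an unadjusted p under 0.05 (5.96% of all tested genes). At an adjusted p under 0.05, edgeR called 3 lower (0.287% of all tested genes). Most marker sums of other cell types were higher in both CD63 high libraries. Below, rose means called higher by edgeR at an adjusted p under 0.05 (2.5% of all tested genes). The number of listed genes includes those not tested. Alpha cell markers summed to 5630 and 5821 CPM in CD63 high libraries, against 476 and 656 CPM in CD63 low (2 of 10 genes rose), and delta cell markers to 465 and 842 CPM in CD63 high libraries, against 67.6 and 48.7 CPM in CD63 low (3 of 4 rose). Gamma cell markers summed to 2418 and 3906 CPM in CD63 high libraries, against 517 and 315 CPM in CD63 low (4 of 5 rose), and macrophage markers to 208 and 610.1 CPM in CD63 high libraries, against 31.3 and 56.1 CPM in CD63 low (13 of 15 rose). Acinar markers summed to 1152 and 1723 CPM in CD63 high libraries, against 31.2 and 476 CPM in CD63 low (6 of 20 rose, Cpa3 at 0), and duct markers to 3490.0 and 1984 CPM in CD63 high libraries, against 1099.8 and 1273 CPM in CD63 low (2 of 11 rose, Cftr at 0). Endothelial markers summed to 7.98 and 4.89 CPM in CD63 high libraries, against 4.70 and 6.69 CPM in CD63 low (0 of 8 called, Cdh5 at 0), and stellate markers to 1.94 and 10.5 CPM in CD63 high libraries, against 1.67 and 0.686 CPM in CD63 low (1 of 8 rose). Among tested markers, the log2 fold change was above 0 for 7 of 9 alpha, 3 of 3 delta, 4 of 4 gamma and 15 of 15 macrophage genes. It was above 0 for 17 of 17 acinar, 7 of 9 duct, 2 of 3 endothelial and 4 of 4 stellate genes. The part of these cells in the results below was not tested. In bulk RNA, fewer cells of a type and less RNA per cell cannot be told apart.

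No ribosomal protein gene passed the test between CD63 high and CD63 low cells, yet the fitted difference had the same sign for all of them. edgeR's quasi-likelihood test called 0 of 80 tested members higher and 0 of 80 lower at a Benjamini-Hochberg adjusted p under 0.05, where it called 2.5% of all tested genes higher and 0.287% lower. The smallest adjusted p of a member was 0.105. At an unadjusted p under 0.05, 30 of the 80 (37.5%) were higher in CD63 high cells and 0 were lower, against 8.95% and 5.96% of all tested genes. The log2 fold change, CD63 high over CD63 low, was above 0 for 80 of 80 members and for 48.6% of all tested genes, although Rpl37a and Rpl13a turned below 0 under alternatives given with them. Its median over members was 0.48, a 1.39-fold higher level, with a range of 0.12 to 0.72 and a standard error per gene of 0.186 to 0.360. The median over all tested genes was -0.01. On the same counts, limma-voom called 0 members in either direction (all genes: 1.87% higher, 0.279% lower). DESeq2 called 2 members higher, among them Rps2, and 0 lower (all genes: 4.03% higher, 1.15% lower).

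The order of the individual libraries was shared by most members. For 72 of the 80 members, both CD63 high libraries lay above both CD63 low libraries, as they did for 23.8% of all tested genes, and for 0 members both lay below (22.2% of all tested genes). CD63 low replicate 2 was the lowest of the 4 libraries for 80 of 80 members (28.6% of all tested genes), and CD63 low replicate 1 was below both CD63 high libraries for 72 (35.4%). The 8 members whose groups overlapped were Rpl37a, Rpl13a, Rpl13, Rpl5, Rplp2, Rplp1, Rpl22 and Rps25, 7 of the large and 1 of the small subunit. All ribosomal protein transcripts together made up 0.637% and 0.610% of the counted reads in the CD63 high libraries, against 0.491% and 0.433% in the CD63 low libraries. The widest 95% Wilson interval of these shares, which covers counting error only, was 0.634% to 0.640%. With the insulin transcripts taken out of the total, the shares were 1.25% and 1.28% in the CD63 high libraries, against 1.13% and 0.844% in the CD63 low libraries. Both CD63 high libraries thus held the larger share on either total, and CD63 low replicate 1 came close to them on the second. For a single value such as a share, an exact permutation test of 2 libraries against 2 cannot give a two-sided p below 0.333, so none is given.

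**Figure D1:**
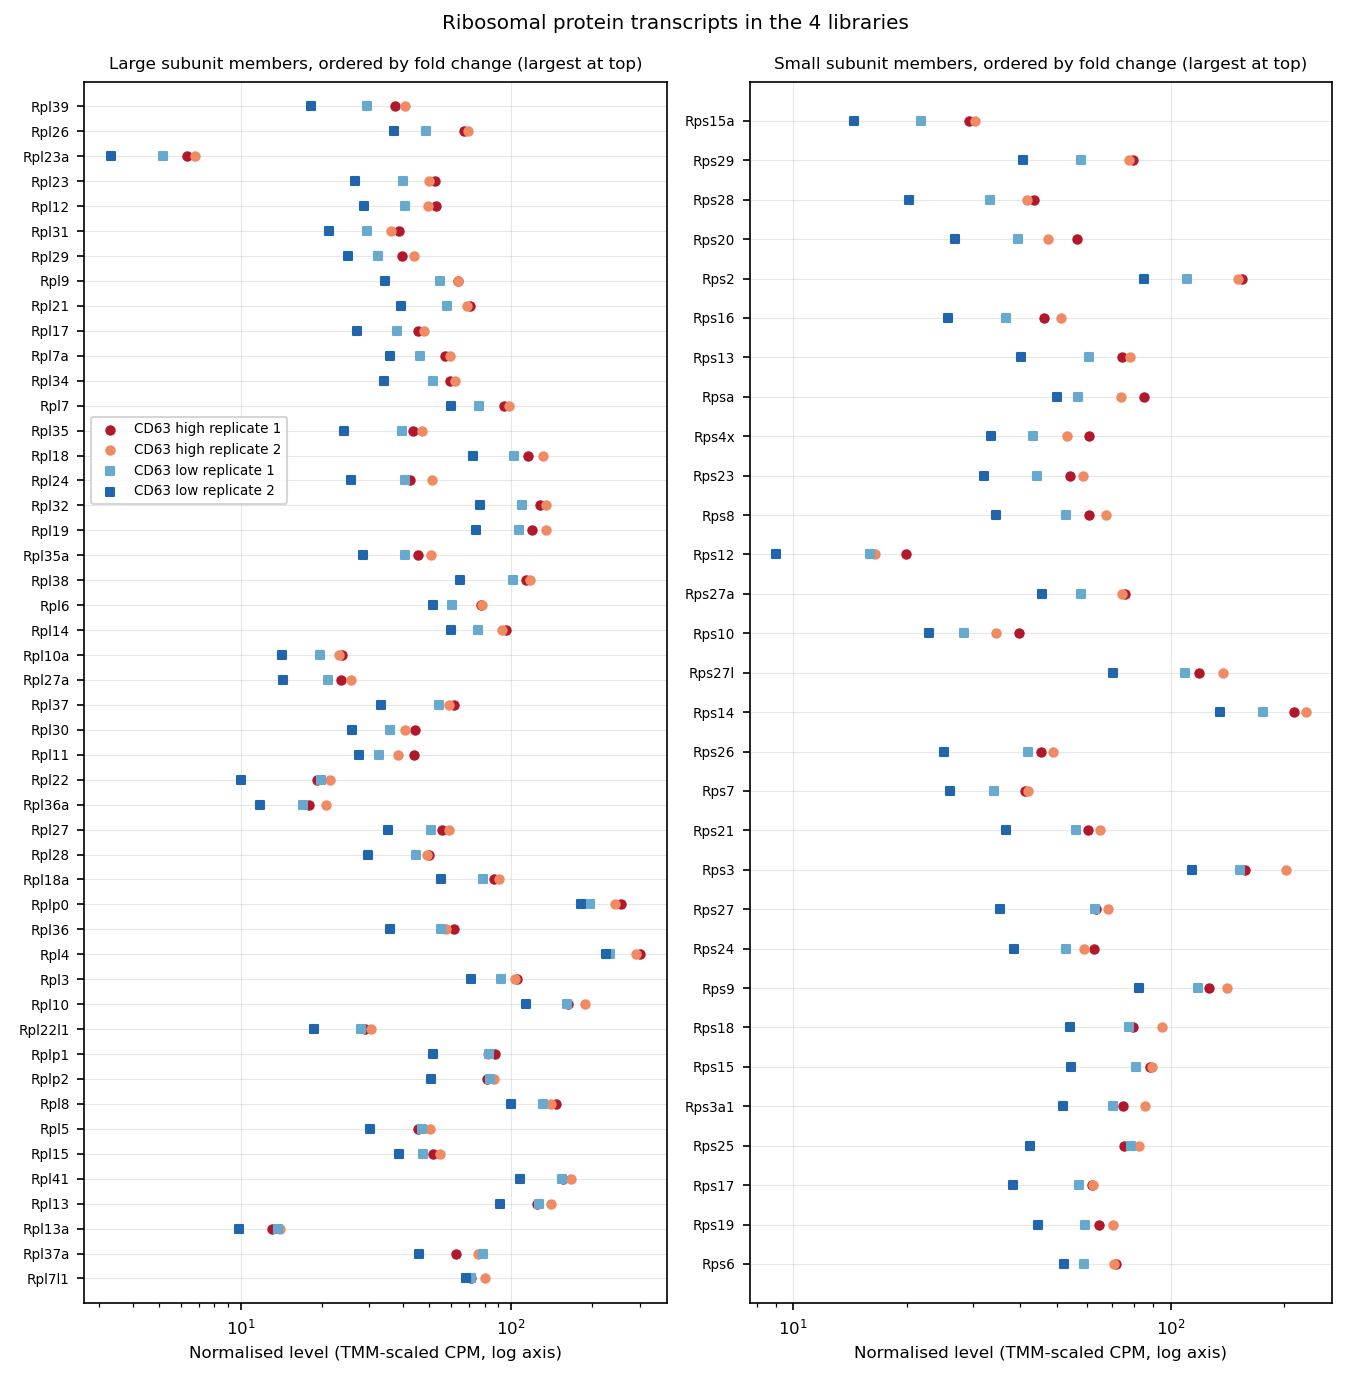
TMM-scaled CPM (log axis) of 78 tested ribosomal protein genes in the 4 libraries, with large subunit genes in the left panel and small subunit genes in the right panel, ordered by fold change from top to bottom. Circles are CD63 high and squares CD63 low libraries. The dark blue squares of CD63 low replicate 2 are leftmost in every row, and both circles lie to the right of both squares in 70 of the rows.

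The 2 CD63 low libraries differed from each other by as much as the groups did. CD63 low replicate 2 was below CD63 low replicate 1 for 80 of 80 members (49.3% of all tested genes), with a median log2 ratio of -0.51 and a range of -0.98 for Rpl22 to -0.05 for Rpl4. CD63 high replicate 2 was below CD63 high replicate 1 for 27 of 80 members (50.4% of all tested genes), with a median log2 ratio of 0.07. The size of the difference within CD63 low went with the length of the protein-coding sequence. Members with under 500 coding bases (n = 49) had a median log2 ratio of -0.58, and members with 500 or more (n = 31) one of -0.38. Across the 80 members, which share the same libraries and are not replicates, coding length and this ratio had a Pearson r of 0.59 and a Spearman rho of 0.69, against 0.14 and 0.30 over 12347 tested genes. The same relation within CD63 high had an r of -0.08 and a rho of -0.05 over members, against -0.17 and -0.31 over the 12347 genes, so that a length trend between replicates, of opposite sign, was also present there over all genes. CD63 low replicate 2 also had the highest TMM scaling factor of the 4 libraries (1.11, against 0.921 in CD63 low replicate 1 and 1.03 and 0.947 in CD63 high replicates 1 and 2) and the lowest share of mitochondrially encoded transcripts (0.245%, against 0.417% in CD63 low replicate 1 and 0.323% and 0.338% in CD63 high). The part of these properties in the ribosomal protein difference was not tested.

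**Figure D2:**
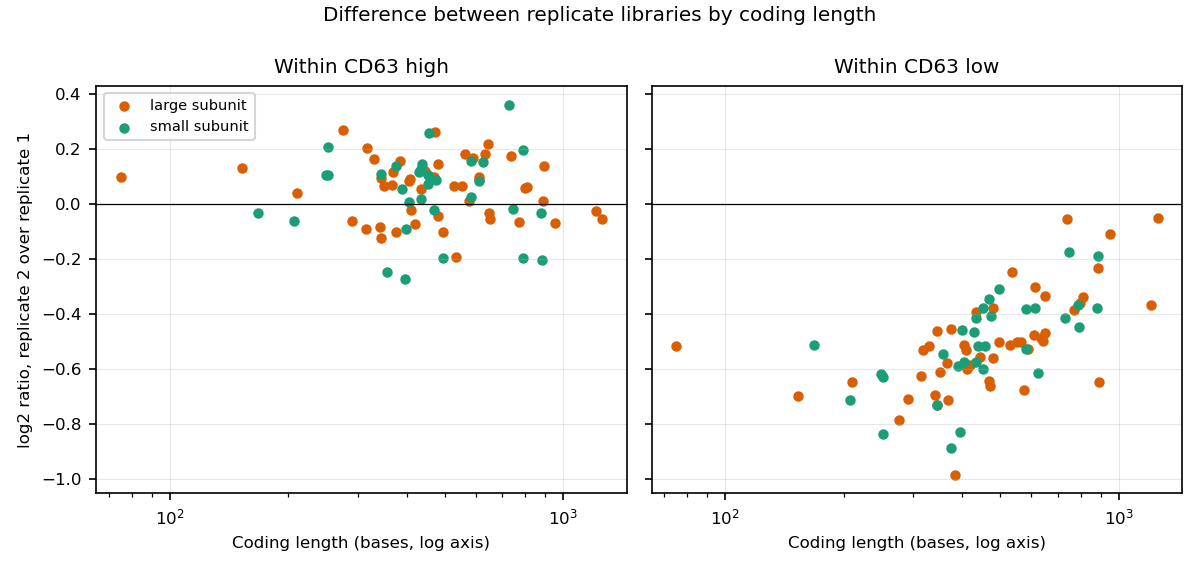
Log2 ratio of replicate 2 over replicate 1 of each ribosomal protein gene against its coding length in bases (log axis), with CD63 high in the left panel and CD63 low in the right panel. All 80 ratios lie below 0 within CD63 low, from -0.98 to -0.05, and the genes with short coding sequences lie lowest, while the ratios within CD63 high scatter around 0.07.

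The group difference therefore rests in part on CD63 low replicate 2. Without it, the median log2 fold change of members was 0.26, 79 of 80 were still above 0, and 1 member reached an unadjusted p under 0.05 by edgeR (8.62% of all genes tested so). Without CD63 low replicate 1, the median was 0.74 and edgeR called 22 members higher at an adjusted p under 0.05 (8 large, 14 small; 3.66% of all genes tested so). Another alternative, chosen after the data were seen, removed from each library the trend of its levels, relative to the gene's mean, on transcript length. The median was then 0.24, 78 of 80 were above 0 and 12 reached an unadjusted p under 0.05 by edgeR (9.48% of all tested genes). With no filter on low counts edgeR called 1 member (3.76% of all genes tested so), and with replicate numbers crossed as a block, also chosen after the data were seen, it called 9 (4.58% of all tested genes). At an unadjusted p under 0.05, edgeR found 13 members higher with the replicate number as a block (7.64% of all tested genes), 68 with the numbers crossed (11.9%) and 74 without CD63 low replicate 1 (10.3%).

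Small subunit genes were frequent among the larger fold changes, and large subunit genes made up all of the 10 smallest. The median log2 fold change was 0.52 over the 32 small subunit genes and 0.47 over the 48 large subunit genes. At an unadjusted p under 0.05 by edgeR, 16 of 32 against 14 of 48 were higher (8.95% of all tested genes). Of the 10 members with the largest fold changes 7 were of the small subunit, and of the 10 with the smallest 0 were. The counts of small subunit genes over those of large subunit genes gave ratios of 0.694 and 0.708 in the CD63 high libraries, against 0.664 and 0.643 in the CD63 low libraries. The ratio was thus higher in both CD63 high libraries, with a gap wider than the difference between the 2 libraries of either group. The difference of the medians between subunits was not tested.

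**Figure D3:**
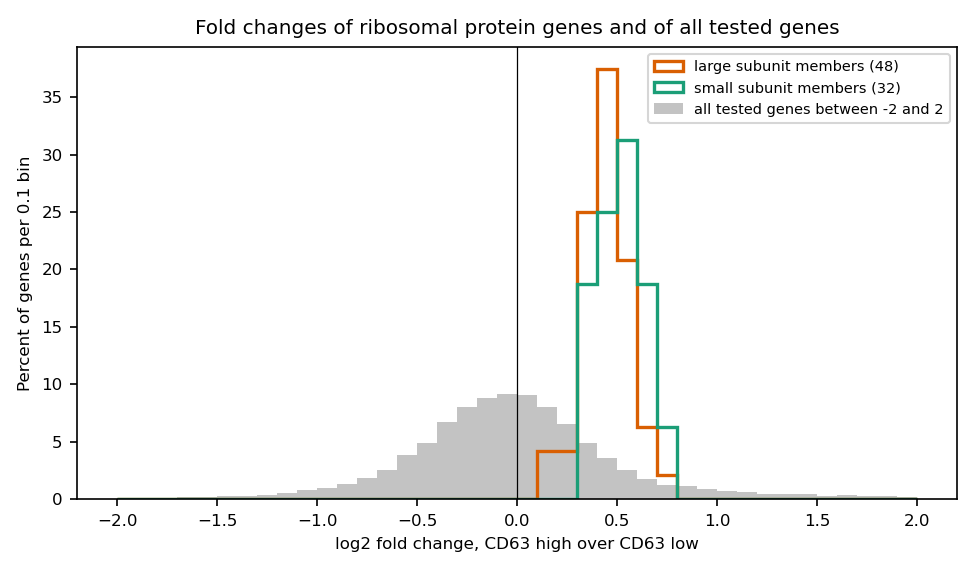
Distribution of the log2 fold change, CD63 high over CD63 low, as the percent of genes in each bin, for large subunit genes (orange line, n = 48), small subunit genes (green line, n = 32) and all tested genes (grey). Every ribosomal protein gene lies above 0, between 0.12 (Rpl7l1) and 0.72, where all tested genes centre on -0.01, and the small subunit genes lie slightly further right.

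Rps15a, Rps29, Rpl39 and Rpl26 were among the 5 members with the largest fold changes. Rps15a, a small subunit protein, had 29.2 and 30.3 CPM in CD63 high and 21.9 and 14.5 CPM in CD63 low replicates 1 and 2 (log2 fold change 0.71, SE 0.25, edgeR adjusted p = 0.194). Its CD63 high replicates were close, and its CD63 low replicates were lower and wider apart. Rps29, a zinc-binding protein of the small subunit, had 79.5 and 77.8 CPM in CD63 high and 57.8 and 40.5 CPM in CD63 low libraries (0.68, SE 0.22, edgeR adjusted p = 0.154). Rpl39, a very small protein at the tunnel through which the new chain leaves, had 37.2 and 40.7 CPM in CD63 high and 29.5 and 18.2 CPM in CD63 low libraries (0.71, SE 0.26, edgeR adjusted p = 0.208). Rpl26, which lies near the exit of that tunnel and is known to bind the messenger of the tumour suppressor p53, had 67.1 and 69.6 CPM in CD63 high and 48.7 and 37.1 CPM in CD63 low libraries (0.67, SE 0.21, edgeR adjusted p = 0.137). None of these genes had overlapping groups. Rps2, called by DESeq2, had 155 and 151 CPM in CD63 high and 111 and 85.0 CPM in CD63 low libraries.

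The 5 smallest fold changes all belonged to large subunit genes. Rpl7l1, a relative of the large subunit gene Rpl7 whose yeast counterpart is a ribosome assembly factor, had 71.4 and 80.5 CPM in CD63 high and 71.2 and 68.5 CPM in CD63 low cells (a log2 fold change of 0.12, SE 0.19, edgeR adjusted p = 0.850). Rpl37a, a zinc-binding protein, had 62.6 and 75.3 CPM in CD63 high and 79.0 and 45.9 CPM in CD63 low libraries (0.14, SE 0.26, edgeR adjusted p = 0.871). For Rpl37a the highest and the lowest value both came from CD63 low cells, and its sign turned without CD63 low replicate 2 (-0.18) and with the trend on exon length (-0.019) or transcript length (-0.14) removed. Rpl13a, whose introns hold small nucleolar RNAs, had 13.1 and 14.0 CPM in CD63 high and 13.7 and 9.86 CPM in CD63 low libraries (0.20, SE 0.27), and -0.0040 with the transcript length trend removed. Rpl13 had 125 and 141 CPM in CD63 high and 128 and 91.0 CPM in CD63 low libraries (0.28, SE 0.22). Rpl41, the smallest ribosomal protein, had 156 and 167 CPM in CD63 high and 154 and 108 CPM in CD63 low libraries (0.30, SE 0.22). In the last 3 genes CD63 low replicate 1 lay close to the CD63 high libraries, and CD63 low replicate 2 lay apart.

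The stalk of the large subunit, which recruits translation factors, is formed by Rplp0 at its base and by Rplp1 and Rplp2. Rplp0 had 256 and 244 CPM in CD63 high and 197 and 182 CPM in CD63 low cells (a log2 fold change of 0.40, SE 0.19). Rplp1 had 87.1 and 82.2 CPM in CD63 high and 83.4 and 51.5 CPM in CD63 low libraries (0.33, SE 0.24). Rplp2 had 81.3 and 86.7 CPM in CD63 high and 83.9 and 50.6 CPM in CD63 low libraries (0.32, SE 0.25). The base gene, with the longer coding sequence, separated the groups with close replicates, while the groups overlapped for the other two. Rpsa, the small subunit protein also known as a laminin receptor, had 85.1 and 73.9 CPM in CD63 high and 56.9 and 49.9 CPM in CD63 low libraries (0.58, SE 0.20, edgeR adjusted p = 0.185). Rpl4, which has the longest coding sequence of the members at 1257 bases, had 301 and 289.8 CPM in CD63 high and 232 and 224 CPM in CD63 low libraries (0.37, SE 0.19). Rpsa, Rplp0 and Rpl4 were among the members whose 2 CD63 low libraries differed least, with log2 ratios of replicate 2 over replicate 1 of -0.19, -0.11 and -0.05. The other members with CD63 low replicates this close were Rps6 (-0.18) and Rpl7l1 (-0.06), and Rpl7l1 had the smallest fold change of all.

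Levels were compared between genes per kilobase of the exon length that the deposited tables give for each gene. The median member stood at 35.1 and 37.2 CPM per kb in CD63 high and at 29.1 and 21.1 CPM per kb in CD63 low replicates 1 and 2. Rpl38, which mice need for translation of Hox messengers, was the highest member in every library, at 211 and 216 CPM per kb in CD63 high and 187 and 119.7 CPM per kb in CD63 low. Rps15a was the lowest tested member in every library, at 4.66 and 4.84 CPM per kb in CD63 high and 3.49 and 2.32 CPM per kb in CD63 low. After Rpl38, the large subunit genes with the highest mean over the 4 libraries were Rplp1 (152 CPM per kb), Rplp0 (133), Rpl4 (130.5) and Rpl36 (130.1). Small subunit genes with high levels were Rps14 (135 CPM per kb), Rps27l (134), Rps15 (124) and Rps29 (92.2). Neighbours from Rplp1 to Rpl36, and from Rps14 to Rps15, changed places in at least 1 library, whereas Rpl38 stood above Rplp1, and Rps15 above Rps29, in all 4. In levels per gene, Rpl38 had 114 and 117 CPM in CD63 high and 102 and 64.9 CPM in CD63 low libraries, and Rpl36 had 61.6 and 57.8 CPM in CD63 high and 55.1 and 35.7 CPM in CD63 low libraries. Rps14 had 212 and 228 CPM in CD63 high and 175 and 135 CPM in CD63 low libraries, and Rps15 had 88.4 and 89.5 CPM in CD63 high and 81.1 and 54.5 CPM in CD63 low libraries. In all 4 of these genes the groups did not overlap and CD63 low replicate 2 was lowest.

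The spread of levels among members went with the annotated exon length. Exon lengths ran from 404 bases (Rpl36) to 6270 bases (Rps15a) with a median of 1775.5, although the median main transcript was 882 bases and the median coding sequence 454.5 bases. Log2 exon length and log2 CPM per kb had a Pearson r of -0.69 over 80 members and -0.34 over 13241 tested genes. Exon length enters both quantities, and the exon length of a gene counts every annotated exon. The use of single exons was not measured. With the main transcript length in place of the exon length on the first axis the r was -0.37, and with the coding length it was -0.07. Exon length and the log2 fold change had an r of -0.04 over members and -0.15 over all tested genes.

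**Figure D4:**
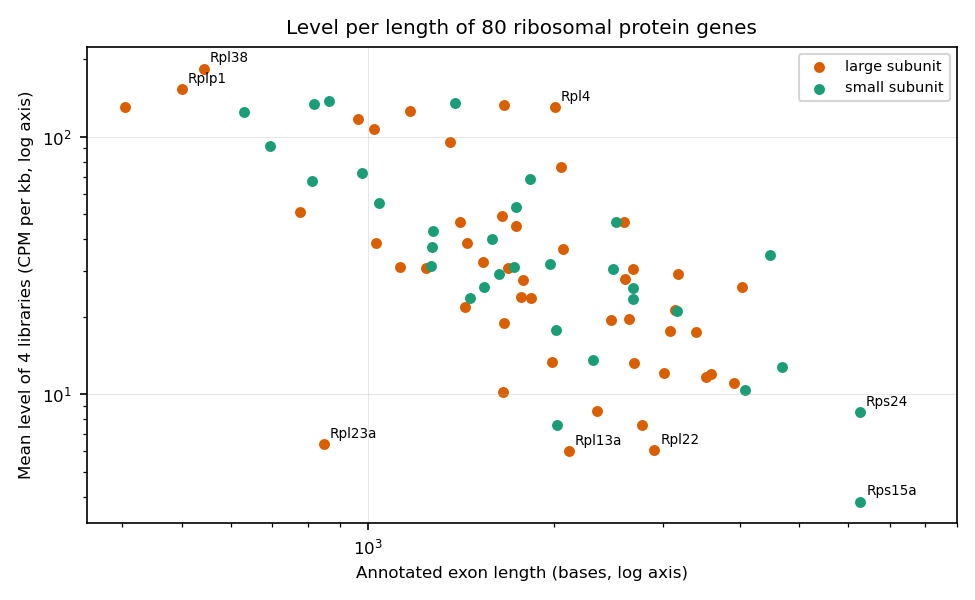
Mean level of each tested ribosomal protein gene over the 4 libraries (CPM per kb of exon, log axis) against its annotated exon length (bases, log axis), coloured by subunit. Levels fall with exon length (Pearson r -0.69, with exon length on both axes), from Rpl38 at the top to Rps15a at the lower right, and Rpl23a lies far below other genes of its length.

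The counts of many members depend on how reads that match several genes were handled. The mouse genome holds many processed pseudogenes of ribosomal protein genes, and the file headers show no option for reads with several alignments, so that such reads were left out. Of the 83 members, 80 shared at least one 50-base stretch with an annotated pseudogene, and the median tested member shared 51.5% of its 50-base stretches with some other gene. The share was 98.6% for Rps27, 95.1% for Rpl35 and 85.7% for Rpl23a. Across members it had a Pearson r of -0.09 with the level per kb and -0.06 with the log2 fold change. The median log2 fold change was 0.48 both for the 41 members with at least 50% of stretches shared and for the 39 with less. Over the 7 members with under 10% shared, which include Rpl22, Rpl7l1, Rpl8 and Rps15a, it was 0.45. Levels of single members are thus uncertain between genes, while the median difference between groups was the same to 2 decimals above and below 50% of shared stretches.

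Several members have a near relative that can take its place in the ribosome or acts in ribosome assembly. Rps27l, a relative of Rps27 that is a known target of p53, had 119 and 137 CPM in CD63 high and 109 and 70.4 CPM in CD63 low libraries, and Rps27 had 63.5 and 68.3 CPM in CD63 high and 63.0 and 35.3 CPM in CD63 low libraries. Rps27l made up 65.2% and 66.8% of the counts of this pair in CD63 high libraries, against 63.3% and 66.6% in CD63 low libraries. Rps27l thus had the larger share in all 4 libraries, with no difference between groups beyond that between replicates, but 98.6% of the stretches of Rps27 were shared with other genes against 22.4% of Rps27l. Rpl22l1 had 29.0 and 30.4 CPM in CD63 high and 27.9 and 18.7 CPM in CD63 low libraries, and Rpl22, which binds RNA and is dispensable in most mouse tissues, had 19.2 and 21.4 CPM in CD63 high and 19.8 and 10.0 CPM in CD63 low libraries. The share of Rpl22l1 in its pair was 60.1% and 58.7% in CD63 high, against 58.5% and 65.1% in CD63 low libraries, again without separation of the groups.

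Of the 3 member pairs with both genes past the filter on low counts, only Rpl7l1 and Rpl7 separated the groups in their balance. Rpl7 had 94.8 and 98.8 CPM in CD63 high and 76.1 and 60.1 CPM in CD63 low cells (a log2 fold change of 0.51, SE 0.20). The share of Rpl7l1 in the counts of the pair was 43.0% and 44.9% in CD63 high, against 48.3% and 53.2% in CD63 low libraries. The log2 ratio of Rpl7l1 to Rpl7 was -0.35 on average in CD63 high and 0.05 in CD63 low, a difference of -0.40 with a pooled SD of 0.15. The difference is larger than that pooled SD. Per library, the ratio was -0.408 and -0.295 in CD63 high, against -0.0956 and 0.187 in CD63 low replicates 1 and 2. The 2 CD63 low libraries thus lay farther apart than the nearest libraries of the 2 groups. In the main fit, Rpl7l1 had the smallest fold change of all members (0.12). The main transcript was 2606 bases for Rpl7l1 and 1163 bases for Rpl7. With the transcript length trend removed, the log2 fold change was 0.18 for Rpl7l1 and 0.31 for Rpl7, and that of Rpl37a was lower (-0.14). The part of length in the balance of this pair was not tested. For Rpl7, 53.3% of stretches were shared with other genes, against 9.19% for Rpl7l1. An exact permutation test of this ratio could not give a two-sided p below 0.333. Rpl36al, a relative of Rpl36a whose longer suffix the naming rule leaves out, also passed the filter. It had 77.9 and 79.9 CPM in CD63 high and 69.7 and 51.9 CPM in CD63 low libraries, and its balance with Rpl36a was not computed. Among members, the remaining relatives were near or at 0. Rpl3, at the peptidyl transferase centre, had 106 and 104 CPM in CD63 high and 92.1 and 71.3 CPM in CD63 low libraries, where its relative of striated muscle Rpl3l had 0.128 and 0.181 CPM in CD63 high and 0.033 and 0 CPM in CD63 low. Rpl10, a protein that joins the large subunit late in assembly, had 162 and 189 CPM in CD63 high and 161 and 114 CPM in CD63 low libraries. Of its counts and those of Rpl10l, and of Rpl39 and Rpl39l, the relatives known from testis took at most 0.266%. A count of 0 allows a TMM-scaled level of up to 0.0957 and 0.108 CPM in CD63 high replicates 1 and 2, and 0.0988 and 0.0770 CPM in CD63 low replicates 1 and 2 (3 counts each).

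**Figure D5:**
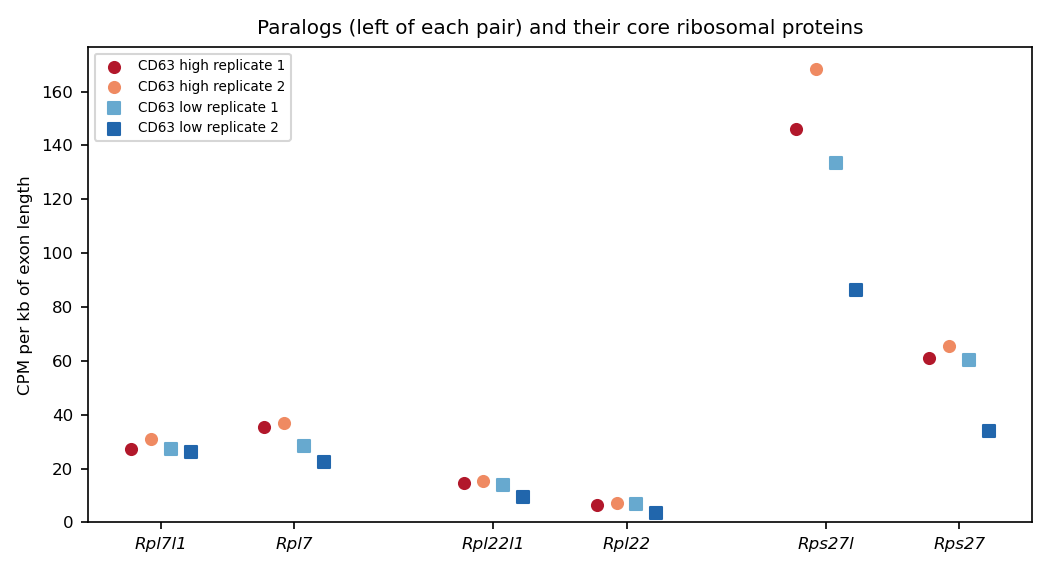
Level per kb of exon (CPM per kb) of 3 paralogs, each left of its related core gene, with circles for CD63 high and squares for CD63 low libraries. Rps27l lies above Rps27 and Rpl22l1 above Rpl22 in every library, while Rpl7l1 is nearly level across libraries and Rpl7 is lower in both CD63 low libraries.

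The start regions of the members were examined because a pyrimidine tract at the start of transcription defines the TOP class, and the stretches below belong to the members with the largest and smallest fold changes and to a paralog pair. RefSeq start regions (GRCm38.p6) were given for 63 of the 83 members, and the first listed start of each gene was used. Each stretch covers 40 bases before the listed start and 20 bases from it on, 5′ to 3′ on the gene's strand, and capitals mark runs of at least 5 C or T bases that begin with C. The first 5 are the members with the largest fold changes that had an entry, the next 5 those with the smallest, and the last pair are Rps27 and its relative. The listed start lies inside the gene as the count tables place it by 1947 bases for Rps2, 180 for Rpl39, 137 for Rpl41, 41 for Rps15a, 16 for Rpl13a and 3 for Rps27, and at or before its first base for the other six.
Rps15a, chr7:118116128-118116187, minus strand: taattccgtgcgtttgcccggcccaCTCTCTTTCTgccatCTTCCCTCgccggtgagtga
Rpl39, chrX:37085203-37085262, minus strand: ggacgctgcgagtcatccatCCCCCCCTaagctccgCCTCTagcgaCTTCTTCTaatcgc
Rpl26, chr11:68901526-68901585, plus strand: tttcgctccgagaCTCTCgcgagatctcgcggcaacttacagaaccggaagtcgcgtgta
Rps28, chr17:33824543-33824602, minus strand: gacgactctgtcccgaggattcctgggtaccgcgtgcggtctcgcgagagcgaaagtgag
Rps2, chr17:24720023-24720082, plus strand: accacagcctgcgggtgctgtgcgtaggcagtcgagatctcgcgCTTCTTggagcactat
Rpl7l1, chr17:46782637-46782696, minus strand: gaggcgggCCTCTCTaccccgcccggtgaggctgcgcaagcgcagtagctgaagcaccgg
Rpl37a, chr1:72711220-72711279, plus strand: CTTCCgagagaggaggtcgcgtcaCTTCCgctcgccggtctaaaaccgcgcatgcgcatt
Rpl13a, chr7:45128726-45128785, minus strand: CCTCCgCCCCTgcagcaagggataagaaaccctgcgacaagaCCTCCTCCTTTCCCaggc
Rpl13, chr8:123102310-123102369, plus strand: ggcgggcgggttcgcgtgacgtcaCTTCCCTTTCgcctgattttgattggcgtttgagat
Rpl41, chr10:128549149-128549208, minus strand: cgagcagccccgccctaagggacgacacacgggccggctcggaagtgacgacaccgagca
Rps27, chr3:90213629-90213688, minus strand: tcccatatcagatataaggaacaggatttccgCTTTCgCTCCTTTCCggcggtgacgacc
Rps27l, chr9:66946046-66946105, plus strand: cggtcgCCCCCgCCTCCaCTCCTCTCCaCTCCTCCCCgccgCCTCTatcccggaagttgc

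A run of this kind within 20 bases on either side of the listed start was found in 46 of the 63 members with an entry (73.0%), against 46.1% of all 27025 start regions. The sequences above show such runs at both ends of the fold change order, in Rps15a, Rpl39 and Rps2 as well as in Rpl13a and Rpl13. Of these genes, only Rps15a has a run that begins at the listed start, and in Rpl13 the run ends before it. The median log2 fold change was 0.47 for the 43 tested members with a run and 0.47 for the 17 without one. Other motifs were searched on both strands of the whole window, which runs from 250 bases before to 50 bases after the start. The core of the binding site of ETS factors such as Gabpa, CCGGAAG, was present in 25 of 63 members (39.7%; all start regions 9.12%). The Sp1 core GGGCGG was present in 38 (60.3%; all 35.9%), the Yy1 site AAGATGGC in 5 (7.94%; all 2.88%) and the TATAAA box in 6 (9.52%; all 14.2%). CCGGAAG and AAGATGGC can overlap at AAG, and each was counted on its own. A match describes these letters in this window and shows no binding.

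Genes that work with the ribosomal proteins were compared by lists. The 4 genes fused to or associated with ribosomal proteins had log2 fold changes above 0 in all 4 cases, with a median of 0.43 and 0 called. Among them, Fau, which encodes a small subunit protein fused to a ubiquitin-like part, had 57.5 and 57.2 CPM in CD63 high and 47.1 and 33.8 CPM in CD63 low libraries, and the ribosome-bound scaffold Rack1 had 128 and 133 CPM in CD63 high and 111 and 84.4 CPM in CD63 low libraries. Both follow the order of libraries seen in the ribosomal proteins. Of the 24 tested genes listed as other TOP messengers, 21 had a fold change above 0 with a median of 0.29. At an unadjusted p under 0.05 by edgeR, 3 were higher and 0 lower (all tested genes: 8.95% and 5.96%), and 0 were called. Pabpc1, which binds the tail of messengers, had 74.1 and 64.9 CPM in CD63 high and 48.1 and 47.7 CPM in CD63 low libraries (0.54, edgeR adjusted p = 0.207), and the elongation factor subunit Eef1g had 79.2 and 78.3 CPM in CD63 high and 63.1 and 50.8 CPM in CD63 low libraries (0.47, edgeR adjusted p = 0.308). In Pabpc1 the 2 CD63 low libraries were nearly level, unlike in most ribosomal protein genes.

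Genes for building ribosomes had fold changes on both sides of 0. Of the 105 tested ribosome biogenesis genes, 58 had a log2 fold change above 0, and the median was 0.05. At an unadjusted p under 0.05 by edgeR, 2 were higher and 1 was lower (all tested genes: 8.95% and 5.96%), and 0 were called. Eif6, which keeps new large subunits from joining small ones, had 147 and 141 CPM in CD63 high and 106 and 74.7 CPM in CD63 low libraries (0.68, edgeR adjusted p = 0.145). Urb2 had 1.15 and 2.06 CPM in CD63 high and 3.23 and 7.52 CPM in CD63 low libraries (-1.75, edgeR adjusted p = 0.119). For both genes CD63 low replicate 2 lay farthest from the CD63 high libraries. The 77 tested genes of the mitochondrial ribosome, a separate particle inside mitochondria, had a median of 0.26 with 68 above 0. Of them, 4 were higher at an unadjusted p under 0.05 by edgeR (8.95% of all tested genes), and 0 were called. Mrps18b had 24.2 and 26.0 CPM in CD63 high and 16.5 and 15.9 CPM in CD63 low libraries (0.63, edgeR adjusted p = 0.201), and Mrpl52 had 46.4 and 46.2 CPM in CD63 high and 34.9 and 25.1 CPM in CD63 low libraries (0.63, edgeR adjusted p = 0.204). The median of the cytosolic ribosomal protein genes, 0.48, was the highest of these lists, and no difference between lists was tested.

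Of the 25 tested genes that control growth and the synthesis of ribosomal proteins, such as those of mTORC1 and its regulators, 9 had a log2 fold change above 0 and the median was -0.25. At an unadjusted p under 0.05 by edgeR, 2 were higher and 3 were lower (all tested genes: 8.95% and 5.96%), and 0 were called. Cdkn1a, the cell cycle inhibitor induced by p53, had 45.8 and 51.1 CPM in CD63 high and 29.0 and 18.9 CPM in CD63 low libraries (1.02, edgeR adjusted p = 0.0571). Sesn1, a leucine-sensing inhibitor of mTORC1, had 6.93 and 10.4 CPM in CD63 high and 14.1 and 21.1 CPM in CD63 low libraries (-1.02, edgeR adjusted p = 0.124). The groups did not overlap for either gene, and neither passed the test.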

How the data were processed

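The authors deposited raw counts per gene name for each library, made with featureCounts 1.6.2 per the file headers, which counted read pairs over the Cell Ranger mm10 3.0.0 annotation, ignoring strand and leaving out reads that align to several places. STAR 2.6.0c, FastQC, Cell Ranger and mm10 are named per the submitters' processing notes, and no trimming step is given there. Per the labels' protocols, libraries were made with a SMARTer low-input kit and Nextera XT, which keep no strand information, so a gene and its antisense partner cannot be separated. Such amplification can change the balance of short and long transcripts. The labels name no molecular identifiers, so intervals and floors cover counting error only.

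Counts were read as deposited. Genes were filtered with filterByExpr (minimum count 10, minimum total 15), scaled by TMM and tested with the quasi-likelihood test of edgeR 4.0.16 in R 4.3.3, with no covariate, and p-values were adjusted by Benjamini-Hochberg over 13241 genes. The edgeR coefficient of biological variation was 0.264. The steps were tested on simulated data. The standard error of a log2 fold change is its size divided by the root of the F statistic. CPM are TMM-scaled, except summed marker levels, which use total counts. Counts within a group differed by 31.1 (CD63 high) and 61.2 (CD63 low) chi-square units per degree of freedom, far above sampling noise, so each library was counted on its own. Replicate numbers are those of the sample titles, and the file headers number the CD63 low libraries otherwise.

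Main transcript lengths, coding lengths and shared stretches of 50 bases come from GENCODE M21 (GRCm38, as mm10). Alternatives were DESeq2 1.42.0, limma-voom (limma 3.58.1), other scalings, filters and dispersions, length trends removed, a replicate block and leaving out each library. Genes were named by rule: the 5 largest and 5 smallest fold changes and the 5 highest levels per kb in each subunit. The rule also took the paralog pairs among members, Rpsa, the stalk genes, and the 2 smallest p-values of each other list. Rps2, Rps28, Rpl23a and the genes of other short lists of names were added after their values were seen. Some genes that the rule names are not reported here. The members and lists were chosen with earlier results of these data known.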

Additional observations from a re-analysis of the deposited data

How the results depend on the processing

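The median log2 fold change of members was above 0 under every alternative run, between 0.24 (transcript length trend removed) and 0.74 (without CD63 low replicate 1), and 78 to 80 members were above 0. Counts of calls depended on the alternative. Leaving out 1 library at a time gave 0 to 22 members called higher and 1 to 74 higher at an unadjusted p under 0.05. Each fit without a library left 1 library in a group, so its counts show only how far the calls moved. With no filter on low counts edgeR called 1 member (1.22% of members, against 3.76% of all genes tested so). DESeq2 called 2 members (2.5% of members, against 4.03% of all tested genes). Both shares lay below those of all genes. With the transcript length trend removed 12 members were higher at an unadjusted p under 0.05 by edgeR (15% of members, against 9.48% of all tested genes). The difference of the small and large subunit medians, 0.054, was 0.096 with the exon length trend removed and 0.32 over the 7 members with under 10% of stretches shared; the cause was not tested. Among named members, Rpl37a was at -0.019 with the exon length trend removed, -0.14 with the transcript length trend removed and between -0.18 (without CD63 low replicate 2) and 0.58 (without CD63 low replicate 1) when 1 library was left out, and Rpl13a at -0.0040 with the transcript length trend removed. A replicate block by title number left 0 members called and 13 higher at an unadjusted p under 0.05 by edgeR (7.64% of all tested genes). Libraries with the same title number did not pair (correlation of deviations -0.152 over all tested genes). The file headers number the CD63 low libraries otherwise, so the authors' own pairing, if any, is not known. The crossed pairing, added after seeing the data, called 9 members higher (4.58% of all tested genes). With it, 68 were higher at an unadjusted p under 0.05 by edgeR (11.9% of all tested genes). Depth limits Rpl3l, Rpl10l and Rpl39l, and every other member had at least 129 counts in each library.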

Other observations

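The members lay on 19 chromosomes, 18 autosomes and the X, with 14 on chromosome 7 and 7 on chromosome 11. The 4 X-linked members were Rpl10, Rpl36a, Rpl39 and Rps4x, the X-linked form of its small subunit protein. Rps4x had 60.7 and 53.0 CPM in CD63 high and 43.2 and 33.5 CPM in CD63 low libraries, and Rpl36a had 17.97 and 20.7 CPM in CD63 high and 17.0 and 11.8 CPM in CD63 low libraries, so that the groups did not overlap for either gene, and neither passed the test. Rpl5 and Rpl11 together bind the p53 regulator Mdm2 when ribosome assembly fails. Their log2 fold changes were 0.31 (SE 0.24) and 0.46 (SE 0.21), and the difference between them was not tested. Rpl11 had 43.9 and 38.4 CPM in CD63 high and 32.6 and 27.4 CPM in CD63 low libraries, and Rpl5 had 45.5 and 50.1 CPM in CD63 high and 47.1 and 30.1 CPM in CD63 low libraries, where the groups overlapped. Rps6, the protein phosphorylated by the kinases below mTORC1, had 71.8 and 70.8 CPM in CD63 high and 58.9 and 52.1 CPM in CD63 low cells (a log2 fold change of 0.36, SE 0.19), the smallest fold change among small subunit genes. These genes were chosen after their values were seen.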
